A study of Mus musculus with 14 samples.

Results

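The genes described are 10 markers of Kupffer cells, the resident macrophages of the liver, and of macrophages in general: Clec4f, Vsig4, Cd5l, Timd4, Marco, Folr2, Fcna, Csf1r, Adgre1 and Cd68. They were matched by symbol, and 10 of 10 were found among the 54532 genes of the liver count table and 7 of 10 among the 16481 genes of the table of cultured pancreatic stellate cells (PSCs). Clec4f, Timd4 and Adgre1 were not analysed here in PSCs. The livers were taken 20 days after 100000 KPCY cells, mouse pancreatic cancer cells with a yellow fluorescent label, had been placed in the pancreatic tail of mice of 8 to 12 weeks. There were 2 livers of WT mice, 3 of TRPV4-KO mice and 3 of GSK219 mice, so every liver, WT included, was that of a tumor-injected animal. The study's methods call WT the mice that carry loxP-flanked Piezo1 alleles, which the labels do not mention. TRPV4-KO mice lack the cation channel TRPV4 in the whole body, whereas the injected cancer cells carried the channel. GSK219 mice were WT mice given the TRPV4 antagonist GSK2193874 by gavage at 10 mg/kg every 24 hours, and whether WT controls received the vehicle is not given in the sources used here. The PSCs, from 3 preparations cultured on Matrigel, were each given the PIEZO1 agonist Yoda1 at 25 μM or its solvent DMSO. The Methods give 24 hours of treatment, and the legend of a supplement gives 72 hours.

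Kupffer cells line the liver sinusoids, where they remove microbes, aged red cells and debris from portal blood. They are seeded before birth and renew themselves under CSF1 receptor signaling, and after injury they can be replaced from blood monocytes, which then take on most of the same genes with time. Several of the markers are receptors for cargo: Clec4f is a C-type lectin largely restricted to Kupffer cells, Vsig4 a complement receptor, Timd4 a receptor for phosphatidylserine on dying cells, Marco a scavenger receptor and Folr2 a folate receptor. Cd5l and Fcna encode secreted proteins, the apoptosis inhibitor of macrophages and the complement-activating lectin ficolin A. Csf1r, the receptor of CSF1 and IL-34, Adgre1, which encodes F4/80, and Cd68, a lysosomal glycoprotein, mark macrophages of many tissues.

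The liver libraries held between 15567031 and 17395299 counts, and 15118 genes passed the filter on low counts, including 10 of 10 markers. Hepatocyte genes were high in every liver, with a summed level of 62143 to 104772 CPM (counts scaled to library size, with TMM factors) for 8 genes. Of the 8 pancreatic acinar genes, 7 did not pass the filter. As a check of the labels, Trpv4 had 43 and 53 counts in WT livers, 15, 5 and 23 in TRPV4-KO livers and 20, 30 and 36 in GSK219 livers. TRPV4-KO livers were thus below both WT livers but not at 0, with a WT over TRPV4-KO log2 fold change of 1.71 (SE 0.50, edgeR adjusted p = 0.16). All GSK219 livers were below both WT livers as well, and TRPV4-KO liver 3 was above GSK219 liver 1. A low Trpv4 level therefore did not single out the knockout livers. Xist, which is transcribed in females, was read in WT liver 1, TRPV4-KO liver 3 and GSK219 liver 3, at 13681 to 15754 counts, and Y-linked genes in the other 5 livers, at 2332 to 2748 counts.

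In WT livers the secreted protein Cd5l had the highest level per gene length, 212 ± 10.0 CPM per kb (SD, n = 2), followed by Clec4f at 173 ± 1.05. Vsig4 followed at 86.5 ± 25.6, Fcna at 77.9 ± 4.24 and Csf1r at 65.9 ± 3.77 CPM per kb, and the spread of Vsig4 covered both of these neighbors. Adgre1 at 25.5 ± 2.76, Cd68 at 23.9 ± 5.63 and Marco at 21.3 ± 10.6 CPM per kb did not differ beyond their spread. Timd4 at 14.1 ± 2.78, within the spread of Marco, and Folr2 at 8.85 ± 0.785 CPM per kb were the lowest. TRPV4-KO and GSK219 livers also had Cd5l and Clec4f first, at 82.4 ± 38.7 and 67.5 ± 26.1 CPM per kb in TRPV4-KO (n = 3) and 101.3 ± 36.5 and 81.9 ± 32.8 in GSK219 (n = 3), and Timd4 and Folr2 last.

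The sequence before the start of some of the 10 genes is shown, and whether it bears on their levels in the livers was not tested. RefSeq promoters of build GRCm38.p6 were matched and searched for 8 of 10 markers. Adgre1 had no promoter entry and Csf1r was left out of the search, so the motif counts below cover neither. Those printed are the 4 whose RefSeq start lay within 1 base of the gene start in the count table. Each run is the 250 bases before the start, 5′ to 3′ on the strand of the gene: Vsig4 at chrX:96293439-96293688 on the minus strand, Cd5l at chr3:87357631-87357880 on the plus strand, Timd4 at chr11:46810549-46810798 on the plus strand and Marco at chr1:120505025-120505274 on the minus strand. Capitals mark GAGGAA, the core bound by the macrophage factor PU.1, and TGCTGA, a core element bound by MAF factors, on either strand (as TTCCTC or TCAGCA on the other). TATAAA was searched as well.
Vsig4: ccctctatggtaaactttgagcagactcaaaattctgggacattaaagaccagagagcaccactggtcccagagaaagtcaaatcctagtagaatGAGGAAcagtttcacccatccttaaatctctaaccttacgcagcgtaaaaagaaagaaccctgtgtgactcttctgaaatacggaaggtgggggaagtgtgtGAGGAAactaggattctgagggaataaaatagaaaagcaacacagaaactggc
Cd5l: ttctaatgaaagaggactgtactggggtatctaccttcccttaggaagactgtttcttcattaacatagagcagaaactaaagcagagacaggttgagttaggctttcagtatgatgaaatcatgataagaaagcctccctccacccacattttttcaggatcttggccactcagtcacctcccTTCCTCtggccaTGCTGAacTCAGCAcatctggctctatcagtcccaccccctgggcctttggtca
Timd4: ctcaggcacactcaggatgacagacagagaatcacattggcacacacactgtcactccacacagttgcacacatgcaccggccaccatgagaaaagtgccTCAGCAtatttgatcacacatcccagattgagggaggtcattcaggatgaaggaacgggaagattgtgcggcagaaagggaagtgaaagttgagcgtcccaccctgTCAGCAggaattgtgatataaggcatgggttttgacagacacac
Marco: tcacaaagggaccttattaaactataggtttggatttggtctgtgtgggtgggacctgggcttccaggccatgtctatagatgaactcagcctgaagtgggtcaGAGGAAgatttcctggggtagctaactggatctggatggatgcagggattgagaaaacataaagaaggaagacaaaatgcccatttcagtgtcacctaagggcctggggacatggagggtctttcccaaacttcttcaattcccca
GAGGAA stood in the 250 bases of 5 of the 8 markers matched (Vsig4, Cd5l, Marco, Cd68 and Fcna), against 23.3% of 32807 promoters of the same length. TGCTGA stood in those of 5 (Clec4f, Cd5l, Timd4, Folr2 and Fcna), against 16.1%, and TATAAA in those of 0, against 12.4%. Cd5l and Fcna held both of the first motifs. In Cd5l they lay close together, with GAGGAA starting 66 bases and TGCTGA 54 and 46 bases before the start, and no 2 of the 3 matches overlapped. These are matches of letters, and binding was not measured.

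The first comparison asked how the livers of tumor-bearing mice differ without TRPV4. Every Kupffer cell and macrophage marker had both WT livers above all 3 TRPV4-KO livers, with a fitted fold of 2.30 to 3.30. By the threshold used (edgeR adjusted p under 0.05 and log2 fold change over 1 in either direction), 0 of 10 passed, against 40 of all 15118 genes (0.265%). With an unadjusted p under 0.05, 9 of 10 were higher in WT, against 9.5% of all genes, and the exception was Marco. Groups that did not overlap in this direction were found for 17.7% of all genes. The median log2 fold change of the markers was 1.34, against -0.01 over all genes tested. In bulk tissue, fewer cells of a type and less RNA per cell cannot be told apart.

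Among the cargo receptors, Clec4f was measured at 426 and 430 CPM in WT livers and at 151, 111 and 237 CPM in TRPV4-KO livers. Both WT livers were nearly equal, and the highest TRPV4-KO liver, number 3, stayed well under them. The log2 fold change was 1.36 (SE 0.38, 95% interval 0.47 to 2.25, edgeR adjusted p = 0.16). Vsig4 was measured at 155 and 101.5 CPM in WT livers and at 35.4, 24.9 and 67.4 CPM in TRPV4-KO livers. The WT livers differed more from each other than for Clec4f but did not overlap with TRPV4-KO, and the log2 fold change was 1.59 (SE 0.56, adjusted p = 0.23 by edgeR). Timd4, which is used to tell embryo-derived Kupffer cells from recently recruited ones, was measured at 34.9 and 26.4 CPM in WT livers and at 12.0, 8.03 and 16.8 CPM in TRPV4-KO livers. Its log2 fold change of 1.32 (SE 0.39, adjusted p = 0.17) was close to that of Clec4f. Folr2 had the largest fitted difference of the 10, with 14.5 and 12.8 CPM in WT livers against 3.35, 2.27 and 6.77 CPM in TRPV4-KO livers. It was also the lowest marker, with 35 to 235 counts per library, and its log2 fold change was 1.72 (SE 0.48, adjusted p = 0.15). Marco was measured at 55.5 and 26.6 CPM in WT livers and at 22.9, 6.03 and 24.4 CPM in TRPV4-KO livers. WT liver 2 was thus close to TRPV4-KO livers 1 and 3, and the interval of the log2 fold change, -0.38 to 2.79, included 0 (edgeR adjusted p = 0.41).

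Of the secreted proteins, Cd5l was measured at 446 and 417 CPM in WT livers and at 141, 106 and 256 CPM in TRPV4-KO livers, with a log2 fold change of 1.36 (SE 0.40, edgeR adjusted p = 0.17). Fcna was measured at 111 and 103 CPM in WT livers and at 34.3, 23.8 and 50.6 CPM in TRPV4-KO livers. It had the smallest adjusted p of the 10, 0.12, with a log2 fold change of 1.56 (SE 0.36, edgeR). The general macrophage markers differed to a similar degree. Csf1r was measured at 335 and 309 CPM in WT livers and at 118, 90.2 and 184 CPM in TRPV4-KO livers. Adgre1 was measured at 88.9 and 76.2 CPM in WT livers and at 32.6, 20.9 and 46.8 CPM in TRPV4-KO livers. Cd68 was measured at 35.01 and 25.002 CPM in WT livers and at 12.3, 8.94 and 17.8 CPM in TRPV4-KO livers, and it had the smallest fitted difference, 1.20 on the log2 scale. These 3 genes had log2 fold changes of 1.20 to 1.30 and edgeR adjusted p-values of 0.17 to 0.18.

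**Figure D1:**
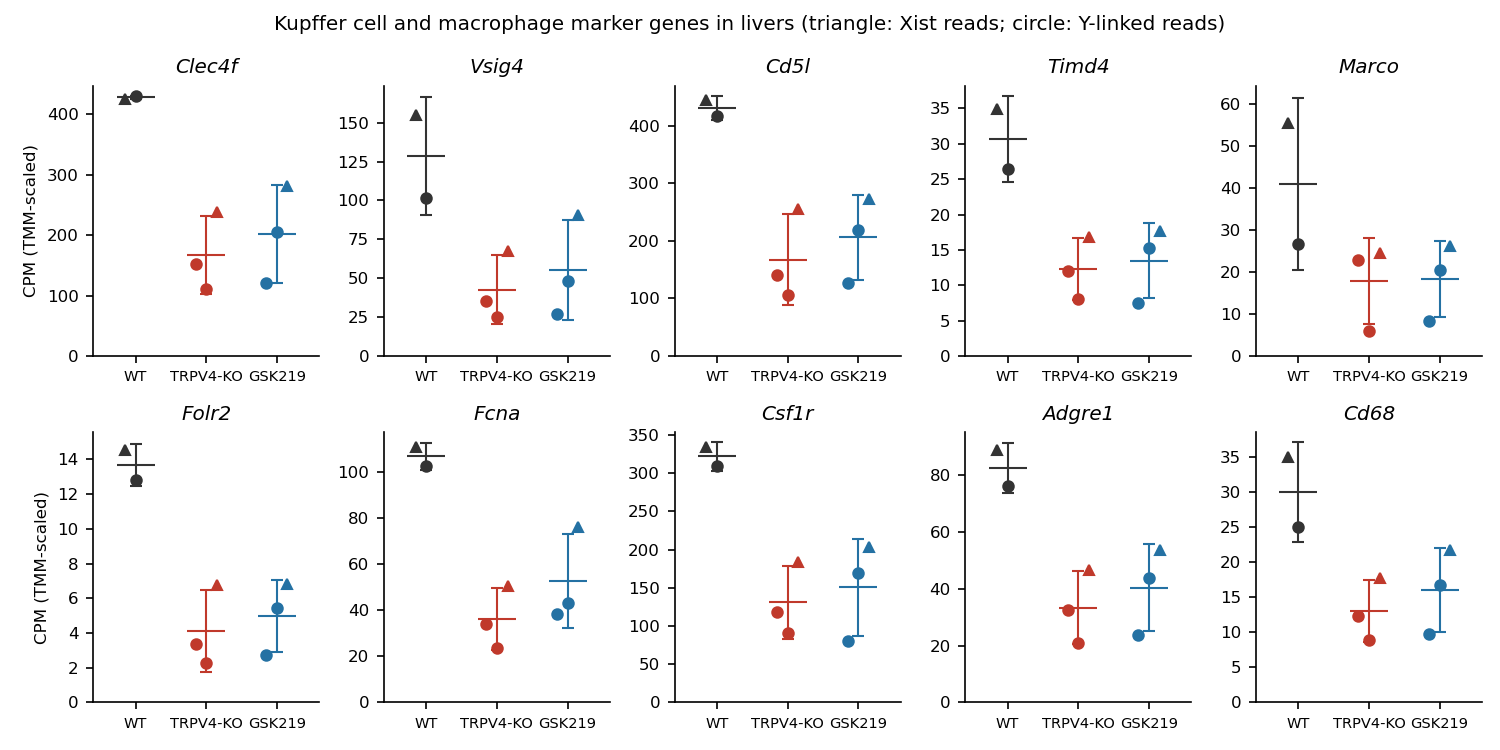
CPM of each marker gene (vertical axes, TMM-scaled, starting at 0) in the 2 WT, 3 TRPV4-KO and 3 GSK219 livers, with points for single livers (triangles, Xist reads; circles, Y-linked reads) and bars for the mean ± SD. Both WT livers lie above every other liver for each gene, for Marco only narrowly (26.6 CPM in WT liver 2 against 26.2 CPM in GSK219 liver 3).

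Whether the threshold was passed depended on the test and on the sex reads. With a term for Xist or Y-linked reads, Clec4f, Vsig4, Cd5l, Folr2, Fcna and Cd68 were called higher in WT (6 of 10, against 1.67% of all genes), and with DESeq2 every marker but Marco (9 of 10, against 2.47%). In the test on simulated data of this comparison, both of these fits made more false calls than edgeR without the term, in number and as a share. For the fit with the term the excess was slight, and DESeq2 made the most. DESeq2 also recovered more of the genes made to differ there, and the fit with the term fewer. Which fit suits livers that differ in sex reads was not tested. The livers with Xist reads were the highest of their group in summed level of the 10 markers, at 1702 CPM against 1527 for WT, 909 against 563 and 402 for TRPV4-KO and 1052 against 786 and 444 for GSK219. The level with Xist reads over that with Y-linked reads had a median over the markers of 1.15 for WT, 1.76 for TRPV4-KO and 1.66 for GSK219. Each of these rests on 1 liver with Xist reads per group, so sex and single animals cannot be told apart. Within the livers with Xist reads, WT was higher than TRPV4-KO for 10 of 10 markers, with a median fold of 2.02 (1.74 to 2.30), and the corresponding median fold among the Y-linked livers was 3.12 (1.84 to 4.56). Without TRPV4-KO liver 3, 4 of 10 markers passed the threshold, against 3.83% of all genes called higher in WT in that fit, and the median log2 fold change was 1.67.

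The second comparison asked the same of the antagonist. GSK219 livers had lower levels than both WT livers for each of the 10 markers, with fitted folds of WT over GSK219 of 1.86 to 2.74. None of the 10 passed the threshold (0 called), as none of all 15118 genes did (0.0000%), and the smallest adjusted p of any gene was 0.063. At an unadjusted p under 0.05 there were 888 genes higher in WT (5.87%) by edgeR, and 8 of 10 markers, all but Vsig4 and Marco. DESeq2 called 64 genes higher in WT (0.423%) and 0 of 10 markers. The median log2 fold change of the markers was 1.09, against 0.00 over all genes tested, and groups that did not overlap in this direction were found for 15.6% of all genes.

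Clec4f was measured at 120, 205 and 282 CPM in the GSK219 livers, and its log2 fold change of WT over GSK219 was 1.08 (SE 0.38, edgeR adjusted p = 0.56). Vsig4 was measured at 26.9, 48.2 and 90.6 CPM, so that GSK219 liver 3 came near WT liver 2 at 101.5 CPM. Timd4 was measured at 7.55, 15.2 and 17.7 CPM and Folr2 at 2.71, 5.44 and 6.81 CPM, and Folr2 again had the largest log2 fold change of the 10, 1.45 (SE 0.47, adjusted p = 0.54). Marco was measured at 8.31, 20.4 and 26.2 CPM. For these receptors GSK219 liver 1 was the lowest and liver 3 the highest of the group. The secreted Cd5l was measured at 126, 219 and 273 CPM, with a log2 fold change of 1.06 (SE 0.40). Fcna was measured at 38.6, 43.4 and 76.2 CPM, with a log2 fold change of 1.02 (SE 0.36). Csf1r was measured at 80.6, 169 and 204 CPM, Adgre1 at 23.8, 43.7 and 53.7 CPM and Cd68 at 9.82, 16.7 and 21.8 CPM. Cd68, with 0.90 on the log2 scale (SE 0.36, edgeR adjusted p = 0.58), had the smallest difference of the 10. Among the livers with Xist reads the median fold of WT over GSK219 was 1.65 (1.46 to 2.13), and it was 2.44 (1.85 to 3.15) among those with Y-linked reads.

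Both comparisons share the WT livers. The direct comparison of TRPV4-KO with GSK219 livers showed overlapping groups for 10 of 10 markers (of all genes, 5.85% had every TRPV4-KO liver above every GSK219 liver and 4.35% below), and 0 of 10 passed the threshold, against 15 of all genes (0.0992%). The markers had a median log2 fold change of TRPV4-KO over GSK219 of -0.28, from -0.54 for Fcna to -0.04 for Marco, with edgeR adjusted p-values of 0.90 to 1.00. None had an unadjusted p under 0.05 by edgeR (0 of 10, against 3.48% of all genes higher and 2.64% lower in TRPV4-KO), and DESeq2 also called 0 (0.298% of all genes higher and 0.318% lower). The intervals were wide: for Clec4f -1.09 to 0.53, for Fcna -1.29 to 0.21 and for Marco -1.49 to 1.41. Differences of about 2-fold in favor of GSK219 therefore lay within the interval for Clec4f, and the sizes of the 2 effects were not resolved.

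**Figure D2:**
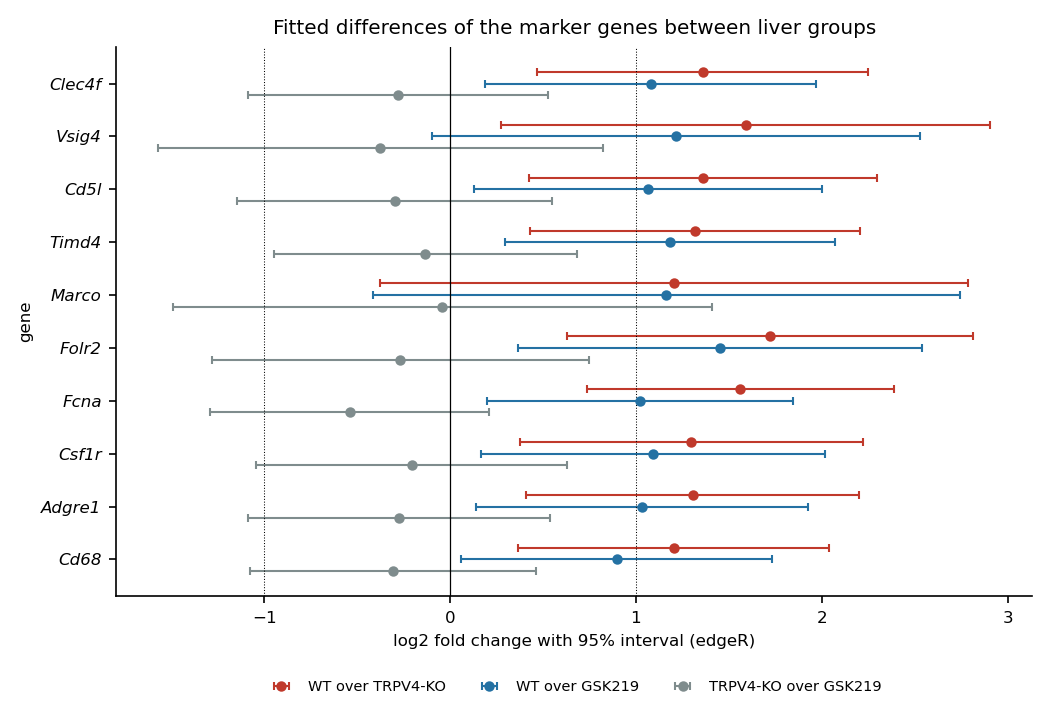
Fitted log2 fold change of each marker gene (horizontal axis, edgeR, points with 95% intervals) for WT over TRPV4-KO, WT over GSK219 and TRPV4-KO over GSK219, with dotted lines at a log2 fold change of 1 in either direction. All 20 differences from WT are above 0, at 0.90 to 1.72, while the 10 between TRPV4-KO and GSK219 lie between -0.54 and -0.04 with intervals that include 0.

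The markers varied together from liver to liver. Over the 8 livers, the 45 pairs of markers had a median Pearson correlation of log2 CPM of 0.98 (0.82 to 1.00), and 0.95 (0.80 to 1.00) after the group means had been taken away. These are descriptions over 8 livers that share group differences, and the liver with Xist reads was the highest of its group in summed level in each. Adgre1 followed the other 9 most closely, with an SD of its log2 ratio to their mean of 0.082 over the livers. Marco departed most, with an SD of 0.46 and a range of 9.22-fold from the lowest to the highest liver, against 3.86-fold for Clec4f. TRPV4-KO liver 1 shows this: Marco was there at 22.9 CPM, nearly as high as in liver 3 at 24.4 CPM, while Clec4f was at 151 against 237 CPM. Fcna (SD 0.26), Vsig4 (0.22) and Folr2 (0.22) came next.

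**Figure D3:**
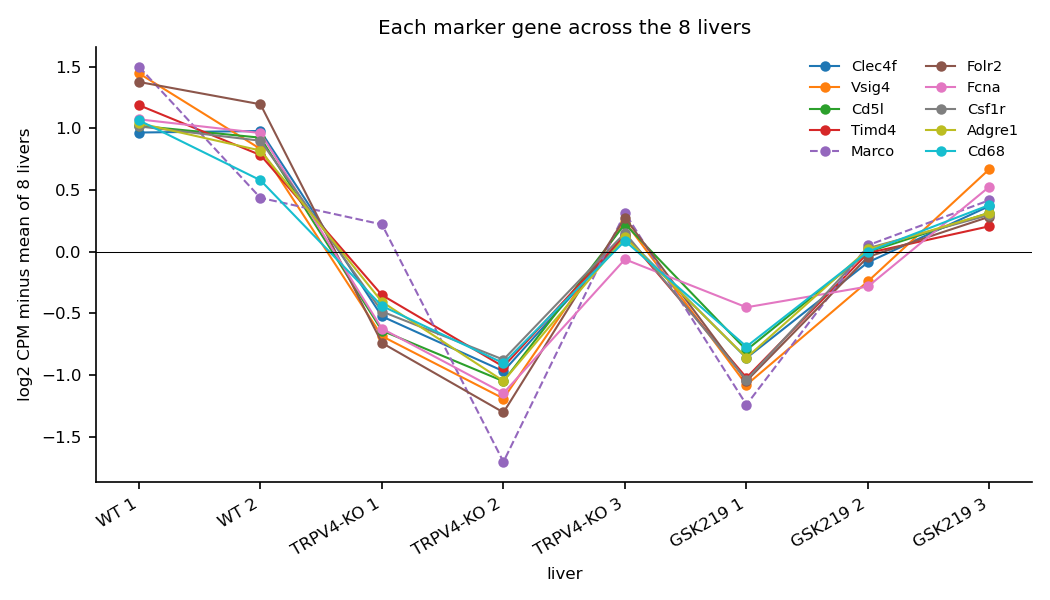
log2 CPM of each marker gene minus its mean over the 8 livers (vertical axis) in each liver (horizontal axis), with lines that join the livers only to guide the eye. The genes run nearly in parallel, and Marco (dashed) spans the widest range, 9.22-fold.

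The genes outside the list whose log2 CPM was most like the mean standardized log2 CPM of the 10 markers, among 13205 candidates with a mean of at least 1 CPM, were Itgal, C1qb, Ptgs1, Soat1, Myo1f, Ctss, Pld4, Gab2, Cyba and Csf2ra. Their correlations over the 8 livers were 0.992 to 0.999, and 0.982 to 0.997 after removal of group means. Itgal, the alpha chain of the integrin LFA-1, had the highest, with 95.1 and 81.8 CPM in WT livers, 34.1, 23.2 and 48.9 CPM in TRPV4-KO livers and 24.98, 44.9 and 56.4 CPM in GSK219 livers. C1qb encodes a chain of complement C1q, Ctss the protease cathepsin S, Cyba a subunit of the phagocyte NADPH oxidase and Csf2ra a chain of the GM-CSF receptor. The 10 genes had log2 fold changes of 1.09 to 1.503 for WT over TRPV4-KO (edgeR adjusted p = 0.14 to 0.21).

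Other genes enriched in Kupffer cells had fitted differences above 0 for 14 of 15. Of these 15, 0 passed the threshold between WT and TRPV4-KO, 11 had an unadjusted p under 0.05 and were higher in WT, and their median log2 fold change was 1.11. The C1q chains C1qa, C1qb and C1qc were at 1.36, 1.36 and 1.37 on the log2 scale. Slc40a1, the iron exporter ferroportin, was at 0.54 (SE 0.22), and Hpgd, a prostaglandin-degrading enzyme named here after its values were seen, was at -0.38 (SE 0.30, edgeR adjusted p = 0.57), the only gene of the list below 0. Against GSK219, 0 of 15 passed and the median was 0.79.

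Macrophage transcription factors ranged from values like those of the markers to values near 0. Of 10, 0 passed the threshold in either comparison with WT, and the median log2 fold change of WT over TRPV4-KO was 0.76. Spi1, which encodes PU.1 and was picked out after its values were seen, was measured at 37.5 and 36.0 CPM in WT livers, 10.4, 9.72 and 18.5 CPM in TRPV4-KO livers and 8.62, 16.4 and 21.04 CPM in GSK219 livers. Its log2 fold changes of 1.51 (SE 0.38, edgeR adjusted p = 0.14) and 1.26 (SE 0.38, adjusted p = 0.54) were of the size of those of the markers. Nr1h3, which encodes the LXR-alpha receptor that maintains Kupffer cell identity and is also used by hepatocytes, was measured at 115 and 114 CPM in WT livers, 105, 111 and 118 CPM in TRPV4-KO livers and 110, 96.5 and 131 CPM in GSK219 livers. Its groups overlapped, and the log2 fold changes were 0.04 (SE 0.14) and 0.02 (SE 0.14). Rxra, the partner of LXR, at -0.12 and 0.01, and Id3, at 0.40 and 0.31, were also past no threshold.

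Of 7 ligands and niche factors of Kupffer cells, 6 were tested and 0 passed the threshold. Csf1, a ligand of Csf1r, had a log2 fold change of WT over TRPV4-KO of 0.00 (SE 0.27) and of WT over GSK219 of 0.19 (SE 0.27). Il34, the other ligand and also named after its values were seen, was at -0.01 (SE 0.45) and 0.57 (SE 0.46). Tgfb1 was at 0.90 (SE 0.17, edgeR adjusted p = 0.090) and 0.70 (SE 0.17), Gdf2 at 1.01 (SE 0.34) and 0.39 (SE 0.34) and the Notch ligand Dll4 at -0.26 and -0.36.

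Summed levels of general myeloid, monocyte and neutrophil genes were higher in both WT livers than in every other liver, whereas those of dendritic cell and lymphocyte genes overlapped between WT and TRPV4-KO. The 14 general myeloid genes had a median log2 fold change of WT over TRPV4-KO of 1.20 and a summed level of 840 to 992 CPM in WT livers against 286 to 591 CPM without TRPV4 and 290 to 570 CPM under GSK219, with 0 genes called. The 4 with the highest levels were Mpeg1 at 0.88, the lysozyme gene Lyz2 at 1.08, Ctss at 1.39 and Laptm5 at 1.43 (edgeR adjusted p = 0.14 to 0.26), each higher in both WT livers than in every TRPV4-KO liver. The summed level of 10 monocyte markers was 60.2 to 74.2 CPM for WT, 16.1 to 49.8 CPM for TRPV4-KO and 21.2 to 39.0 CPM for GSK219. Their median log2 fold change was 1.24 for WT over TRPV4-KO and 1.24 for WT over GSK219. Of these, F13a1, coagulation factor XIII A of monocytes and macrophages, was called higher in WT than in TRPV4-KO (log2 fold change 2.47, SE 0.38, edgeR adjusted p = 0.0499). Of 10 genes of recruited lipid- or scar-associated macrophages, Fabp5, a fatty acid binding protein found in many cell types, was called, with 108 and 109 CPM in WT and 18.1, 26.0 and 14.6 CPM in TRPV4-KO livers (log2 fold change 2.47, SE 0.24, adjusted p = 0.0072). The other 9 of this list, taken apart after the values were seen, summed to 86.2 to 154 CPM for WT, 60.9 to 86.3 CPM for TRPV4-KO and 52.2 to 84.8 CPM for GSK219, so that without Fabp5 the lowest WT liver was level with the highest TRPV4-KO liver. Besides Fabp5, Trem2 at 1.86 (SE 0.31, edgeR adjusted p = 0.069), Mmp12 at 2.48, Lgals3 at 1.49 and Cd9 at 1.12 had both WT livers above every TRPV4-KO liver (5 of 10 genes in all). The groups overlapped for Spp1, at 0.38, with 74.5 and 33.8 CPM in WT and 38.3, 42.5 and 43.8 CPM in TRPV4-KO livers, and for the other 4. Neutrophil genes had the largest differences of these lists, with 3 of 11 tested called (S100a8, Cxcr2 and Cd177), a median of 3.84 and a summed level of 64.8 to 80.9 CPM for WT against 1.77 to 8.05 CPM for TRPV4-KO and 2.64 to 7.11 CPM for GSK219. The 7 dendritic cell markers summed to 18.7 to 28.3 CPM for WT, 13.0 to 21.4 CPM for TRPV4-KO and 13.3 to 20.6 CPM for GSK219, with a median log2 fold change of WT over TRPV4-KO of 0.42 and 0 called. Of these, Zbtb46 was at 0.25, Clec9a at 0.69, Cd209a at 1.42 and Flt3 at 1.35 (edgeR adjusted p = 0.34 to 0.60). The lymphocyte markers summed to 5.36 to 11.8 CPM for WT, 8.16 to 20.3 CPM for TRPV4-KO and 5.86 to 8.67 CPM for GSK219. Of the 10 lymphocyte genes tested 0 were called and the median was -0.08, and Cd79a, a chain of the B cell receptor complex, was at -1.87 (SE 0.76, edgeR adjusted p = 0.26), lower in both WT livers than in every TRPV4-KO liver. The B cell gene Cd79b at -0.97 and the T cell gene Cd4 at 0.32 had overlapping groups. In none of these 6 lists was a gene at 0 in every liver of a group. Their part in the levels of Csf1r, Cd68 and the other shared macrophage genes was not tested.

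Genes of other liver cells had median log2 fold changes of WT over TRPV4-KO from below 0 to 0.90, against 1.34 for the markers, with the highest for stellate and fibroblast genes. The 10 sinusoidal endothelial genes had a median log2 fold change of WT over TRPV4-KO of 0.18, with 0 called. Their summed levels were 651 to 749 CPM for WT, 463 to 716 CPM for TRPV4-KO and 523 to 716 CPM for GSK219 and overlapped. Of the 4 with the highest levels, the scavenger receptor gene Stab2 was at 0.45 (SE 0.20, edgeR adjusted p = 0.29), with both WT livers above every TRPV4-KO liver, and Kdr, Fcgr2b and Dnase1l3 were at 0.11, 0.19 and -0.01 with overlapping groups. Cdh5 (VE-cadherin) at 0.95 (SE 0.26, adjusted p = 0.15) and Pecam1 (CD31) at 0.73 (SE 0.27, adjusted p = 0.24), endothelial genes named after their values were seen, were also higher in both WT livers than in every TRPV4-KO liver. The 8 hepatocyte genes had a median of -0.20 with 0 called. Albumin (Alb) was lower in both WT livers, with a log2 fold change of -0.81 (SE 0.22, edgeR adjusted p = 0.15), whereas Apob at -0.08, Apoa1 at 0.24 and Cps1 at -0.29 overlapped between the groups. The summed level of the hepatocyte genes was 62143 to 70750 CPM for WT, 84556 to 104772 CPM for TRPV4-KO and 81909 to 93192 CPM for GSK219. Most of that sum and of its difference was Alb, with a mean of 38006 CPM in WT, 66647 CPM in TRPV4-KO and 58099 CPM in GSK219 livers. The 7 hepatic stellate cell genes were at a median of 0.84, with 0 called, and summed to 390 to 456 CPM for WT, 150 to 345 CPM for TRPV4-KO and 226 to 391 CPM for GSK219. Of these, Dcn was at 0.89, Reln at 0.84 and Rgs5 at 1.25, each higher in both WT livers than in every TRPV4-KO liver, and Colec11 was at 0.45 with overlapping groups (edgeR adjusted p = 0.16 to 0.44). The 11 stellate and fibroblast genes, some of them in both lists, had a median of 0.90 with 0 called, all 11 above 0 and 8 with both WT livers above every TRPV4-KO liver. They summed to 397 to 601 CPM for WT, 142 to 318 CPM for TRPV4-KO and 189 to 300.02 CPM for GSK219, and the collagen gene Col3a1 was at 1.85 (SE 0.45, edgeR adjusted p = 0.14). The 6 biliary and tumor epithelial genes tested had a median of 0.29 (Krt8 at 0.24, Krt18 at 0.48 and Krt19 at -0.44, each with overlapping groups) and 0 called. Among them Sox9, a transcription factor of bile duct cells, was at 1.59 (SE 0.33, edgeR adjusted p = 0.10), with both WT livers above every TRPV4-KO liver. The 5 erythroid genes tested had a median of -0.26 (Hbb-bs at -0.07), with 0 called. Of 8 acinar genes 1 was tested, Cela1 at -0.29. Whether the composition of the tissue entered the differences of the markers was not tested.

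**Figure D4:**
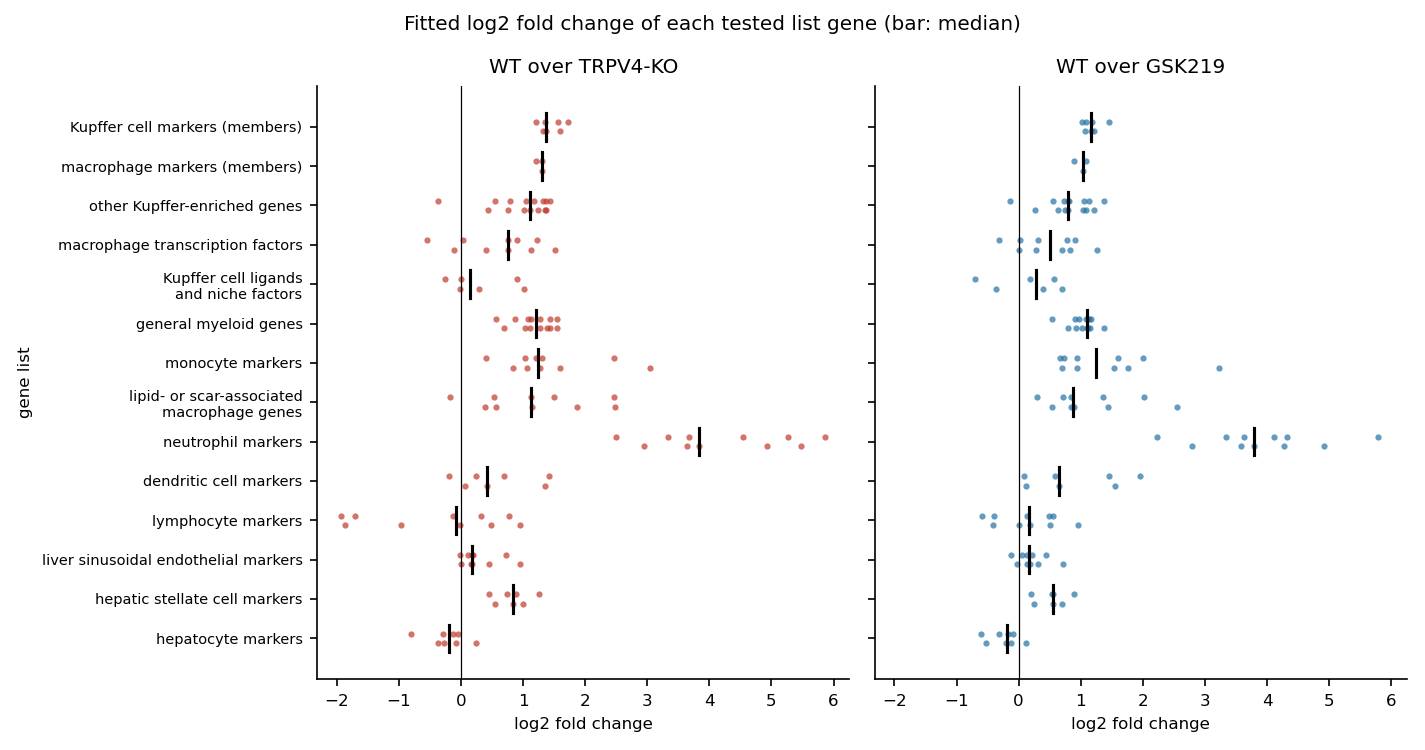
Fitted log2 fold change (horizontal axes) of each tested gene of 14 lists (vertical axis) for WT over TRPV4-KO (left) and WT over GSK219 (right), with a bar at the median of the list. The 7 Kupffer cell and 3 macrophage markers lie above 0 in both panels, with medians of 1.36 and 1.30 on the left. Monocyte markers at 1.24 and general myeloid genes at 1.20 lie next to them there, while endothelial genes have a median of 0.18 and neutrophil genes of 3.84.

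The PSC cultures were examined for the same genes to judge how much macrophage RNA they held. The recovered reads of the 6 libraries, 27312894 to 39070539 per library, gave Cd5l only 6 to 23 reads per library. Vsig4 had 33 to 62 reads, Marco 39 to 62, Folr2 16 to 38 and Fcna 17 to 34. The general markers were higher, with 287 to 483 reads for Csf1r and 160 to 842 for Cd68. Per gene length, Cd68 stood at rank 5374 and Csf1r at rank 9849 of the genes with a known length, 16286 in all, and the Kupffer cell markers between rank 11773 (Vsig4) and 14702 (Cd5l). The 7 markers summed to 13.2 RPM per kb (reads scaled to library size and gene length), against 4105 for 11 stellate and fibroblast genes, 1459 for 7 biliary and tumor epithelial genes and 144 for 5 acinar genes. Other leukocyte genes differed widely, with a mean of 44.1 RPM per kb for Lyz2 but 0.045 for Ptprc, the pan-leukocyte marker CD45, which was named after its values were seen. The levels of an immune cell and of low expression in the stellate cells themselves cannot be told apart in these cultures.

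Of the 6 markers tested in PSCs (Cd5l did not pass the filter on low values), 0 were called between Yoda1 and DMSO, against 236 of 15145 genes (1.56%). With the preparation as a block, 250 genes (1.65%) were called higher and 199 (1.31%) lower with Yoda1, and again 0 of the 6 markers. The unadjusted p was under 0.05 for 0 of the 6 by limma, against 22.7% of all genes, and edgeR on the recovered reads also called 0, against 1.47%. Cd68 alone had a fitted difference above 0. Its deposited values, counts divided by a size factor per library, were 200, 258 and 250 with DMSO and 274, 334 and 675 with Yoda1. All Yoda1 libraries were above all DMSO libraries, as for 14.9% of all genes, with the Yoda1 library of preparation 3 far above the rest. The log2 fold change of log2(value + 1) was 0.75 (SE 0.33, limma adjusted p = 0.23). Csf1r was measured at 479, 395 and 307 with DMSO and at 270, 244 and 387 with Yoda1, so that the treatments overlapped, with a log2 fold change of -0.39 (SE 0.23, limma adjusted p = 0.35). Fcna at -0.63 (SE 0.28), Marco at -0.56 (SE 0.30), Folr2 at -0.53 (SE 0.30) and Vsig4 at -0.19 (SE 0.26) did not pass the test either (limma adjusted p = 0.24 to 0.70). Each of the 5 overlapped between the treatments, whereas 15.1% of all genes had every Yoda1 library below every DMSO library.

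The chains of complement C1q, which macrophages make, had fitted values below 0, and C1qc passed the threshold with the preparation as a block but not without it. These genes, not part of the rule for named genes in PSCs and named after their values were seen, had log2 fold changes of -0.96 (C1qa, SE 0.26), -0.94 (C1qb, SE 0.32) and -1.27 (C1qc, SE 0.30) with limma adjusted p-values of 0.091, 0.15 and 0.069. With the block these were 0.011, 0.018 and 0.0085 at the same fold changes, of which those of C1qa and C1qb were under the fold threshold. Slc11a1 of the other Kupffer-enriched genes (1.05) and Tfec of the macrophage transcription factors (1.14) also passed only with the block, in the other direction (limma adjusted p = 0.029 and 0.044, against 0.22 and 0.081 without it). The deposited values of C1qa were 196, 241 and 278 with DMSO and 95.9, 104 and 176 with Yoda1, and for each of the 3 chains every Yoda1 library was below every DMSO library. Of the list of recruited macrophage genes, Spp1 and Lgals3 were called higher with Yoda1 (log2 fold change 1.71 and 2.18, limma adjusted p = 0.011 and 0.0059). Hmox1, the heme-degrading enzyme, of the other Kupffer-enriched genes (1.18) and the nuclear receptor Nr4a1 of the monocyte list (1.48) were called higher too. Spp1 encodes osteopontin and Lgals3 galectin 3, and both are also made by fibroblasts. Csf1, the ligand of Csf1r, was measured at a mean value of 64413 ± 4035 with DMSO and 47320 ± 3815 with Yoda1 (SD, n = 3 each). Its log2 fold change of -0.45 (SE 0.09, limma adjusted p = 0.042) was under the fold threshold, and it stood at rank 93 of all genes by RPM per kb.

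**Figure D5:**
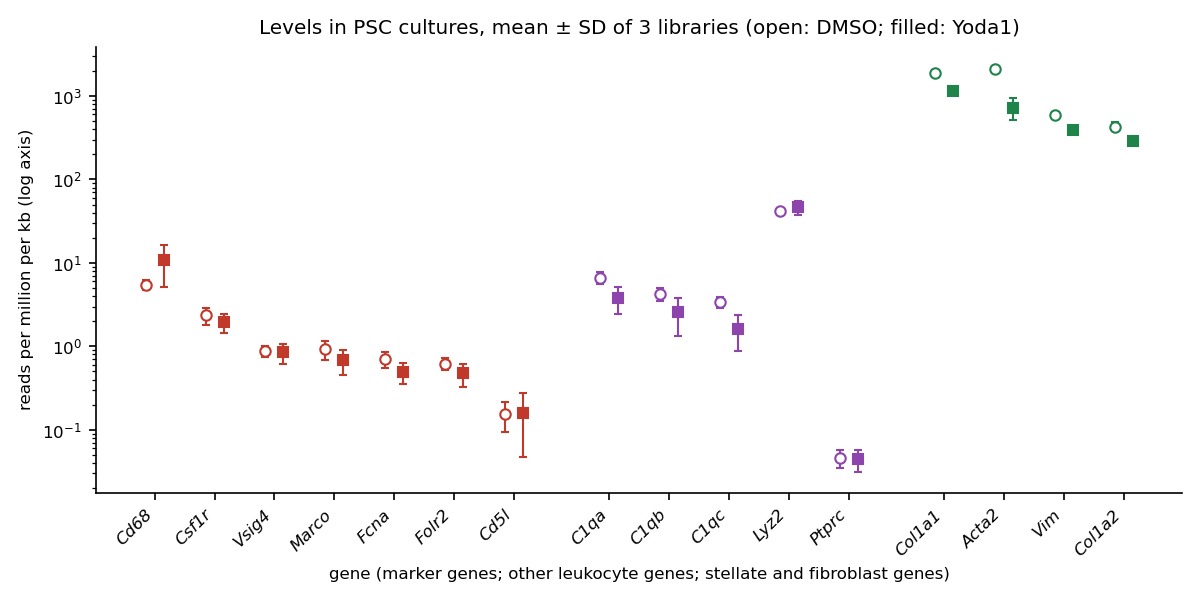
RPM per kb (vertical log axis) of the 7 marker genes, 5 other leukocyte genes and 4 stellate and fibroblast genes in PSC cultures, as mean ± SD of 3 DMSO (open) and 3 Yoda1 (filled) libraries. The markers lie between 0.16 (Cd5l) and 10.8 (Cd68 with Yoda1), far under Col1a1 at 1887 with DMSO and 1136 with Yoda1.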

How the data were processed

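RNA-Seq had been performed on 8 mouse livers and 6 PSC libraries, labelled as biological replicates. HISAT2 2.0.5 and Trim Galore are named in the submitters' processing notes, and the counting tool and its use of strand are not given in the sources used here. For the livers the authors deposited raw counts per gene, with a gene length in another column. No sample described matched 7 other count columns, which were left out. Coordinates of 9 of 10 markers equalled those of GENCODE vM21 (GRCm38). For the PSCs the authors deposited a normalized signal, which was a whole multiple of 1 step per library for 100% of 98886 values (tolerance 0.01), so reads were recovered, and their own fold changes and p-values, which were not used. Markers, lists and tests were chosen with earlier results of these data known.

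Liver counts were tested by edgeR 4.0.16 in R 4.3.3 (TMM, filterByExpr with a minimum count of 10, robust quasi-likelihood fit of all 8 livers, Benjamini-Hochberg adjustment), and PSC values with limma 3.58.1 on log2(value + 1), where a gene needed 3 libraries with a value of 10 or more. Sex reads were called from Xist (at least 100 counts) or Y-linked genes. The 95% intervals are those of the model fitted over the livers or libraries. Libraries of the same PSC preparation, which the column names show, deviated together (r = 0.43, 0.26 and 0.53 across genes), so the preparations pair the samples, and the fit with the preparation as a block was run beside the one without. The named genes were the 10 markers, Trpv4, of each list the genes called in a liver comparison and otherwise at most 4 with the highest mean level, and the 10 genes most like the markers; some genes that the rule names are not reported here, and of some lists, as in the PSCs, fewer were named than the rule gives. Alternatives were DESeq2 1.42.0, other scalings, filters, pseudocounts, blocks, a term for sex reads, and each library left out. The edgeR, DESeq2 and limma fits were tested on simulated data.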

Additional observations from a re-analysis of the deposited data

How the results depend on the processing

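The number of the 10 markers called between WT and TRPV4-KO livers, 0 by edgeR, was 9 with DESeq2, 8 with the replicate block (2.32% of all genes), 6 with a term for sex reads and 9 with DESeq2 and that term together (3.27%), which was added after the data had been seen. It was 0 to 4 when 1 liver was left out, the 4 without TRPV4-KO liver 3. The replicate block has no WT replicate 3, and livers with the same number had correlations of deviations of -0.48 to 0.58, so the numbers only name samples. Against GSK219 and between TRPV4-KO and GSK219 the count was 0 under every alternative run, replicate block included. The median log2 fold change of the markers kept its direction for WT over TRPV4-KO (1.10 to 1.67 with 1 liver left out) and for WT over GSK219 (0.81 to 1.39). For TRPV4-KO over GSK219 it ran from -0.61 to 0.03, and with 1 liver left out the direction of single uncalled markers turned: Timd4 ran from -0.43 to 0.11, Marco from -0.39 to 0.37, Folr2 from -0.83 to 0.024, Csf1r from -0.54 to 0.069, Clec4f from -0.63 to 0.036 and Vsig4 from -0.88 to 0.18. In PSCs 0 markers were called under every alternative. With the preparation as a replicate block, Cd68 had an adjusted p of 0.064 (0.064 to 0.49 over its alternatives) and Marco of 0.094 (0.094 to 0.62, limma), and Vsig4 ran from -0.36 to 0.022 with 1 library left out, above 0 without Yoda1 library 2. The summed level of the markers in PSCs was 11.3 to 13.8 RPM per kb with 1 library left out. Of the markers in the livers Folr2 had the fewest reads, 35 to 235 counts per library, and WT had 2 livers.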
